A study of Sus scrofa with 57 samples.

Results

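Box H/ACA and Cajal body RNAs are short non-coding RNAs of the cell nucleus, and 148 of them had an expression value above 0 in adipocytes of lean and obese pigs. The members were chosen by name, as the genes whose symbol starts with SNORA or SCARNA, and were selected on a measured FPKM above 0 in at least 1 library. FPKM counts the sequenced fragments of a gene relative to its length and to the depth of the library. The names covered 335 of the 25285 gene identifiers, and the other 187 loci were at 0 in every library. Of the 148, 132 were SNORA genes and 16 were SCARNA genes. The group of a pig was not used in this choice.

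The study isolated mature adipocytes, which store fat and were separated with collagenase, from retroperitoneal fat of F2 pigs of a cross between Göttingen minipigs, a breed prone to obesity, and leaner production pigs. RNAseq covered 5 lean pigs (pig-402, pig-407, pig-413, pig-525 and pig-577) and 5 obese pigs (pig-433, pig-473, pig-524, pig-529 and pig-572), all males with no other treatment, and the labels give no age. Lean and obese are the extremes of a segregating population, so the pigs also differ in genotype. The libraries held total RNA depleted of ribosomal RNA, and pig-572 had 2 libraries, which were averaged.

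Box H/ACA RNAs guide the conversion of uridine into pseudouridine in ribosomal RNA. Each folds into hairpins, pairs with its target, and works in a particle with dyskerin (DKC1), NOP10, NHP2 and GAR1. Their relatives in the Cajal body, a compartment of the nucleus, guide the same change or ribose methylation in the RNAs of the spliceosome. In mammals most are cut from introns of host genes, many of which encode ribosomal proteins or translation factors.

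The adipocyte markers found by name, 3 of 8 listed, had a summed scaled FPKM from 423 to 462 in lean and from 567 to 645 in obese pigs. Of these, PLIN1 was at 286 ± 39.4 in lean and 338 ± 61.2 in obese pigs (SD, n = 5 each). PLIN4 was at 127 ± 32.1 and 156 ± 17.7. LEP was at 28.8 ± 21.1 and 118 ± 30.5, and as low as 7.30 in a lean pig. Scaled FPKM is the FPKM divided by a size factor per library, and these factors ran from 0.697 in the second library of pig-572 to 1.21. Macrophage and leukocyte markers (6 of 6 found, with CD163 at 0 in all pigs) summed to between 2.61 and 5.52 in lean and between 3.11 and 5.49 in obese pigs. Endothelial markers (3 of 4) summed to 1.41 to 10.9 and 3.28 to 7.74, and smooth and skeletal muscle markers (4 of 4) to 0.0584 to 1.83 and 0.181 to 0.611. Fibroblast and preadipocyte markers (4 of 5), mostly COL3A1, summed to 223 to 648 in lean and 243 to 621 in obese pigs. Erythrocyte markers (3 of 3) summed to 15.5 to 98.8 and 20.7 to 49.4. The part of these cells in the values below was not tested. In bulk samples, fewer cells of a type and less RNA per cell cannot be told apart.

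The description of 1 of the libraries of pig-572, the second, gives a different number. Over 95 members above 0.01 FPKM in all 11 libraries, the median absolute log2 ratio of scaled FPKM between the libraries of pig-572 was 0.265. Across 24 pairs of libraries from different pigs of the same group this value lay between 0.321 and 1.43, so the libraries of pig-572 were closer to each other than any other pair within a group. The second library also had the fewest genes at 1 FPKM or more, 8950, where the lean libraries had between 9713 and 10183.

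Detection was uneven across the members. Of the 148, 96 were above 0 in all 11 libraries, 44 in 2 to 10 libraries and 8 in a single library. In lean libraries between 118 and 130 members were above 0, and in obese libraries between 114 and 124. Of all 1628 values, 293 were 0. Members just above 0 were SNORA7 on chromosome 13 (76061642 to 76061781, Sscrofa10.2), whose highest FPKM over 9 libraries was 2.13e-34, and SNORA25 on chromosome 9, at 6.60e-05 in 1 library. Such values are far under what a single fragment is worth, and both members are listed above 0 without a fragment of their own.

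Many loci shared a name. The 335 loci carried 86 symbols, of which 83 had a locus above 0. For 16 symbols the annotation held 5 or more loci, 188 in all, and 49 of these loci were above 0. SNORA70 had 46 loci with 3 above 0, SNORA31 had 32 with 7, SNORA11 16 with 2, SNORA19 14 with 2, SNORA18 12 with 2 and SNORA25 10 with 1. SNORA21 had 8 with 6 and SNORA72 7 with 1. SNORA42, SNORA71 and SNORA76 had 6 each, with 4, 3 and 1 above 0. SNORA2, SNORA3, SNORA40, SNORA58 and SNORA62 had 5 each, with 5, 4, 1, 5 and 2 above 0. By contrast, 25 of the 27 symbols with a single locus were above 0. In 4 sets, 8 members in all, the loci had the same value in every library: SNORA65, SNORA70, SNORA21 and SNORA5. Whether these loci share reads was not tested, and the value of a single locus in such a set is uncertain.

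The values were coarse. Cufflinks gave each FPKM with bounds, and where the distance from the value to the upper bound is read as 2 Poisson standard deviations, it yields the number of fragments behind the value, called implied fragments here. Among 894 values with up to 100 implied fragments, 566 or 63.3% came out within 0.05 of a whole number. This count left out the 67 lowest values above 0, all of them well under 1 implied fragment. The median over the 1335 values above 0 was 18 implied fragments, 554 values had fewer than 10, and 136 had 1. On the other side, 374 values had 100 or more and 133 had 1000 or more. Summed over the members, lean libraries held 99824 to 168838 implied fragments and obese libraries 63142 to 114865, of which the leading 5 members held between 73.6% and 80.8%. The total depth of each library is not given in the files used here.

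What 1 fragment was worth depended steeply on length. The shortest member was 119 bases long, and the median length was 134 bases. For members of 126 to 135 bases the median worth of a fragment was 8.69 FPKM, for members of 136 to 150 bases it was 5.75, and for the 11 members of 151 to 204 bases it was 0.952. For the 7 longest members, from 217 bases, it was 0.205. A step of 1 fragment in a short member was thus larger than the whole mean level of DKC1, a scaled FPKM of 4.08 in lean pigs. The worth of a fragment fell far more steeply than the length of the locus rose, so these FPKM are not simply fragments divided by that length. Between members of unequal length, the order by FPKM differs from the order by fragments.

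**Figure D1:**
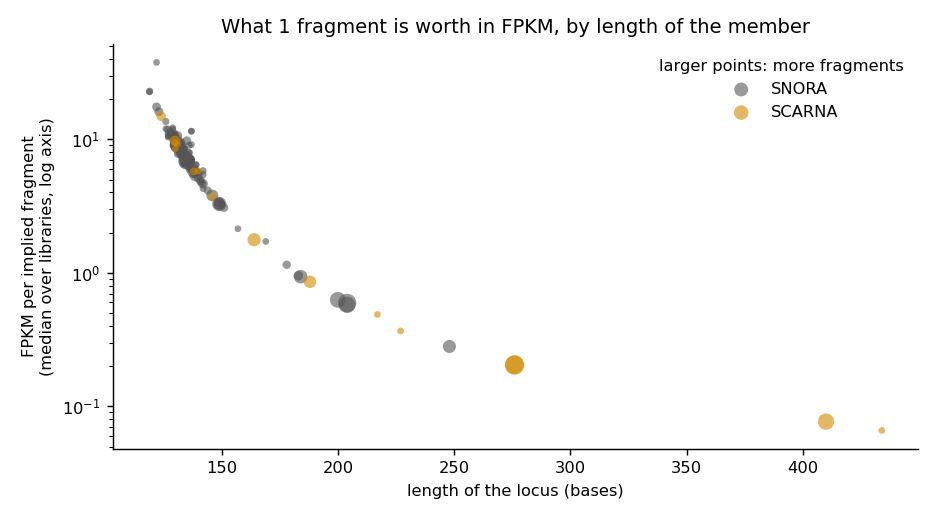
FPKM per implied fragment (median over libraries, log axis) against the length of each member's locus in bases. Grey points are SNORA and orange points SCARNA genes, larger points had more fragments. The worth of a fragment runs from 37.7 FPKM for a short member to 0.0661 FPKM for the longest.

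By FPKM the leading members were SNORA48, its copy on an unplaced scaffold, SNORA38, SNORA63 and SNORA73. By implied fragments they were SCARNA13, with a mean of 33011 per library, SCARNA6 with 20357, SNORA73 with 17712, SNORA48 with 6102 and the second SNORA73 locus with 4890. SCARNA2, 410 bases long, stood at rank 6 by fragments and at rank 47 by scaled FPKM. Lengths of 276 bases went with ranks 1 and 2 by fragments for SCARNA13 and SCARNA6, and with ranks 8 and 11 by scaled FPKM.

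Lean and obese pigs were compared on log2 of the scaled FPKM plus 1 with limma, which fitted 10170 genes with a mean scaled FPKM of at least 1. Of the members, 139 passed this filter, including 9 that reached a mean of 1 in a single group, of which 4 were above 0 in that group alone. The log2 fold change was below 0, that is lower in obese pigs, for 117 of 139 or 84.2%, where it was below 0 for 49.3% of all genes tested. The mean scaled FPKM itself was lower in obese pigs for 116. The median log2 fold change, obese against lean, was -0.52 for the members (quartiles -0.73 and -0.18) and 0.01 for all genes tested. No member passed an adjusted p of 0.05 in limma, for which 0.00983% of all genes did. An unadjusted p under 0.05 was reached by 21 members or 15.1%, against 20.6% of all genes tested. Of these 20 were lower in obese pigs, 14.4% of the members against 9.51% of all genes, and the other was a SNORA31 locus. Of the 21, 3 had reached a mean of 1 only in the group where they were high, which are this locus and the SNORA70 loci of chromosome 15. Among the 130 members with a mean of at least 1 in both groups, 18 or 13.8% had an unadjusted p under 0.05 in limma, and the median log2 fold change was -0.51.

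The count of 21 rested on few pigs. It was 49 without lean pig-402, and 8, 9 and 9 without lean pig-413, obese pig-524 and lean pig-577. The share of all genes with an unadjusted p under 0.05 in limma, 20.6% with all pigs, moved in the same direction. It was 26.2% without pig-402, 14.9% without pig-524 and 14.8% without pig-577, and it was also lower without pig-413. These counts of members therefore do not show a shift of the members alone. The 5 lean pigs were not alike. The median deviation of the 139 members from their mean over all pigs was 0.81 on the log2 scale in pig-577, 0.76 in pig-413 and 0.49 in pig-525, but -0.10 in pig-407 and -0.55 in pig-402. In the obese group it was 0.09 in pig-473, -0.05 in pig-433, -0.07 in pig-529, -0.32 in pig-572 and -0.88 in pig-524. Lean pig-413, pig-525 and pig-577 thus stood above all obese pigs, and lean pig-402 stood below all obese pigs but pig-524.

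Other small RNAs varied between the same pigs. The 54 box C/D RNAs tested, which guide ribose methylation, had a median log2 fold change of -0.28, and the 81 spliceosomal RNAs -0.32. The medians of box C/D RNAs were -0.90, -0.75, 0.60, 0.48 and -0.55 in lean pig-402, pig-407, pig-413, pig-525 and pig-577. In obese pigs they ran from -0.99 in pig-524 to -0.02 in pig-473. Those of spliceosomal RNAs were -0.55, -0.55, -0.22, 0.32 and 0.30 in the same lean pigs. In obese pigs the lowest was -0.69 in pig-524, and the others were at -0.40 or above. The groups overlapped in both classes. Genes that are no small RNAs had medians between -0.05 and 0.02 in every pig. Shares of FPKM are not shares of fragments. Of the FPKM summed over all genes of a library, small RNAs made up 66.4% to 80.8%. The members took 17.4% to 22.9% in lean and 9.46% to 17.0% in obese libraries. The 9.46% is the second library of pig-572, whose first library had 14.4%. Summed over all members, scaled FPKM was 247603 ± 83673 in lean and 154805 ± 38544 in obese pigs (SD, n = 5 each). In this sum the groups overlapped, and lean pig-402 at 133594 stood below all obese pigs but pig-524 at 89621. The part of the small RNAs' variation between pigs in the members' difference was not tested.

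**Figure D2:**
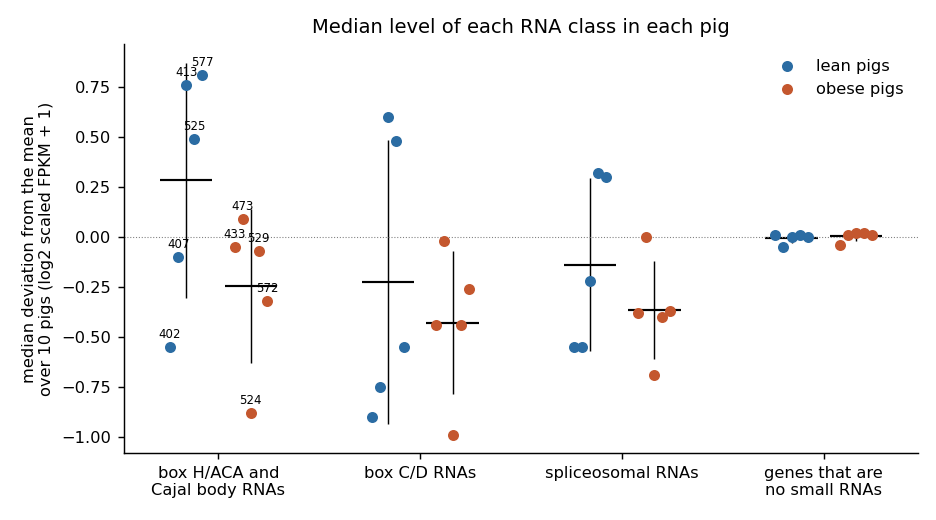
Median deviation of each RNA class from its mean over the 10 pigs (log2 of scaled FPKM plus 1), with 1 point per pig, lean in blue and obese in orange. Horizontal bars are group means and vertical lines 1 SD (n = 5); for the members pig numbers are given, and lean pigs span -0.55 to 0.81 while obese pigs span -0.88 to 0.09.

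Scaling by small RNAs moved the comparison. With size factors from 84 small RNA genes that are no members, which ran from 0.661 to 1.71, the median of all genes shifted to 0.31 and that of the members to -0.12. Of 137 members then tested 62.0% had a log2 fold change below 0, and 19 had an unadjusted p under 0.05 in limma, 15 lower and 4 higher. That is 13.9% of the members, against 10.9% of all genes tested under this scaling. No member passed an adjusted p of 0.05 in limma. The groups did not overlap for SCARNA2 and SNORA50, both higher in obese pigs, or 1.46% of the members against 0.729% of all genes.

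The members were also described by their implied fragments. Of 34 members with a mean of 100 or more implied fragments, 33 had a log2 fold change below 0, with a median of -0.59, and 32 had a lower mean in obese pigs. An unadjusted p under 0.05 in limma was reached by 10 of them or 29.4%, against 20.6% of all genes tested. All genes were not matched to these members by fragments, and the 10 include SNORA48 and its 135-base copy on a scaffold. For the 34 members the median coefficient of variation between pigs of a group was 39.8%, where counting alone gives 4.44%. Of 41 members with 10 to 100 fragments, 38 had a log2 fold change below 0, with a median of -0.57, and 5 or 12.2% reached this p. The variation between pigs was 46.3% with a counting part of 19.2%. Of 64 members with fewer than 10 fragments, 46 had a log2 fold change below 0 and 18 above, with a median of -0.25, and 6 or 9.38% reached this p. For these, counting alone gives 103%, which is no less than the variation of 86.0% between pigs.

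**Figure D3:**
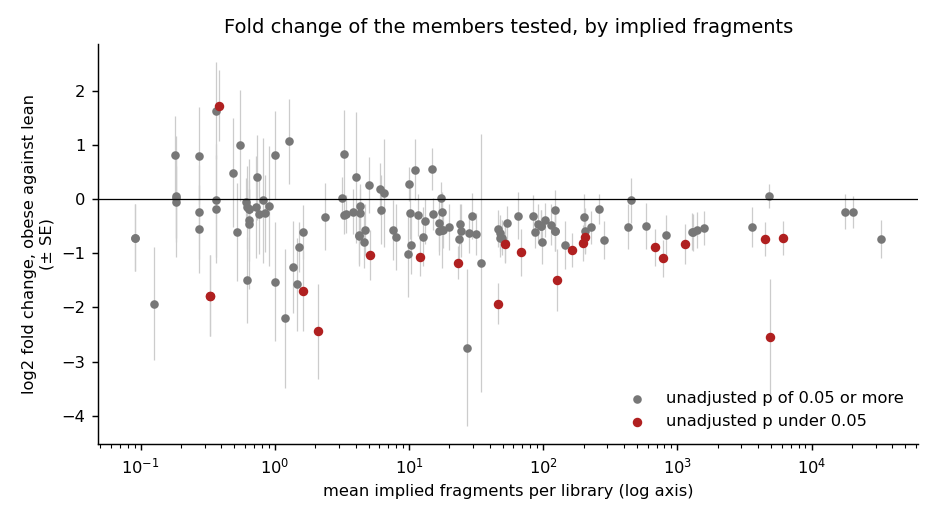
Log2 fold change (obese against lean, ± SE from limma) of the 139 members tested against their mean implied fragments per library (log axis). Red points had an unadjusted p under 0.05; members with 100 or more fragments lie below 0 except SCARNA2 at 0.06, and members with few fragments scatter to both sides.

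Medians were below 0 at every length. The median log2 fold change was -0.54 for members of 126 to 135 bases, -0.33 from 136 to 150, -0.66 from 151 to 204 and -0.36 for the 4 tested members from 217 bases. SNORA genes had a median of -0.53 with values below 0 in 108 of 126 cases, and SCARNA genes had a median of -0.26 with values below 0 in 9 of 13.

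SNORA48 had the highest level of the members by FPKM, and stood at rank 4 by implied fragments. Its 135-base locus lies on chromosome 12 (55303753 to 55303887, Sscrofa10.2) inside EIF4A1, which encodes a helicase of translation initiation. Scaled FPKM was 33033, 42352, 73702, 55896 and 70195 in lean pig-402, pig-407, pig-413, pig-525 and pig-577. It was 33708, 40324, 17610, 40460 and 36260 in obese pig-433, pig-473, pig-524, pig-529 and pig-572. The lean pigs other than pig-402 stood above all obese pigs, while pig-402 lay within their range. The means were 55036 ± 17493 (SD, n = 5) and 33672 ± 9421 (SD, n = 5), with a log2 fold change of -0.71 ± 0.317 (SE) and an adjusted p of 0.242 in limma. The copy of this locus on scaffold GL893964.1 (8573 to 8707) held between 41.9% and 42.8% of the sum of both in every pig, and its log2 fold change was -0.73.

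SNORA38 lies inside BAT2 on chromosome 7 (27509227 to 27509357). Scaled FPKM was 8456, 15659, 20922, 17038 and 25383 in the lean pigs, in the order given above, and 15900, 13574, 7790, 11283 and 9964 in the obese pigs. The groups overlapped, with a log2 fold change of -0.53 ± 0.318 and an adjusted p of 0.360 in limma. BAT2 itself had a scaled FPKM of 3.90 ± 0.965 in lean and 4.97 ± 2.21 in obese pigs (SD, n = 5 each), with a log2 fold change of 0.24.

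SNORA63 on chromosome 13 (133977046 to 133977176) lies inside EIF4A2, another helicase of translation initiation. Its scaled FPKM was 7545, 10885, 16241, 16136 and 24929 in lean pigs and 12783, 12333, 6141, 8859 and 7560 in obese pigs. The 3 highest pigs were lean and the lowest was obese pig-524. The log2 fold change was -0.61 ± 0.344 with an adjusted p of 0.332 in limma. EIF4A2 was at 346 ± 98.1 in lean and 233 ± 50.4 in obese pigs (SD, n = 5 each), a log2 fold change of -0.55 with an unadjusted p of 0.0270 and an adjusted p of 0.202 in limma. Across the 10 pigs, the log2 levels of SNORA63 and EIF4A2 had a correlation of 0.73, and within groups of 0.61.

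SNORA73, which belongs to a box H/ACA family known for roles in the processing of ribosomal RNA rather than in its modification, had loci 1017 bases apart on chromosome 6. The locus at 79348530 to 79348733 was at 6128, 10481, 12627, 14645 and 17065 in lean pigs. In obese pigs it was at 12230, 14023, 6187, 9836 and 8751. These ranges overlapped widely, with a log2 fold change of -0.23 ± 0.321, which turned to 0.17 with the small RNA scaling. The locus at 79349750 to 79349953 was at 3455, 6854, 8657, 388 and 5550 in lean and at 254, 280, 135, 2725 and 2475 in obese pigs. Its log2 fold change of -2.54 ± 1.06 was among the largest of the members, with an unadjusted p of 0.0364 and an adjusted p of 0.217 in limma.

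The share of this locus in the sum of both separated the pigs into 3 levels that cut across the groups. It was 36.1%, 39.5% and 40.7% in lean pig-402, pig-407 and pig-413. It was 24.5% in lean pig-577 and 21.7% and 22.0% in obese pig-529 and pig-572. In obese pig-433, pig-473 and pig-524 it was 2.03%, 1.96% and 2.14%, and in lean pig-525 it was 2.58%. The sum of both loci was 17170 ± 5214 in lean and 11379 ± 3031 in obese pigs (SD, n = 5 each), with a log2 fold change of -0.58 and an adjusted p of 0.295 in limma.

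SNORA48 was also the name of the member whose groups did not overlap. This 149-base locus on chromosome 12 (55302900 to 55303048) lies in EIF4A1 as well. Its scaled FPKM was 223, 361, 435.05, 114 and 116 in the lean pigs and 42.0, 64.6, 50.9, 68.4 and 57.0 in the obese pigs. All lean pigs stood above all obese pigs, and lean pig-402, pig-407 and pig-413 stood above the other two. The means were 250 ± 145 and 56.6 ± 10.6 (SD, n = 5 each), from a median of 22.0 implied fragments. The log2 fold change of -1.93 ± 0.377 had an unadjusted p of 0.000379 and an adjusted p of 0.0819 in limma. The two-sided exact permutation test gave p = 0.00794, the smallest this design allows. Every locus without overlap reaches this p, so it adds nothing to the separation for which the locus was named. It was 1 of 139 members without overlap between the groups, or 0.719%, where 4.14% of all genes tested had none, 1.69% with obese pigs lower.

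A copy of the 149-base SNORA48 locus on scaffold GL893964.1 (9412 to 9560) was measured beside it. The copy was at 311, 474, 580, 1357 and 1407 in lean pigs and at 599, 772, 354, 538 and 595 in obese pigs, and its groups overlapped. The chromosome 12 locus held 41.7%, 43.2% and 42.9% of the sum of both in lean pig-402, pig-407 and pig-413. It held 7.74% and 7.60% in lean pig-525 and pig-577, and between 6.55% and 12.6% in the obese pigs. The sum was 1075 ± 422 in lean and 628 ± 153 in obese pigs (SD, n = 5 each). Its log2 fold change was -0.71 ± 0.308, with an adjusted p of 0.228 in limma and an exact permutation p of 0.0794, and the groups overlapped. The same 3 lean pigs thus had the high share at SNORA48 and at SNORA73.

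**Figure D4:**
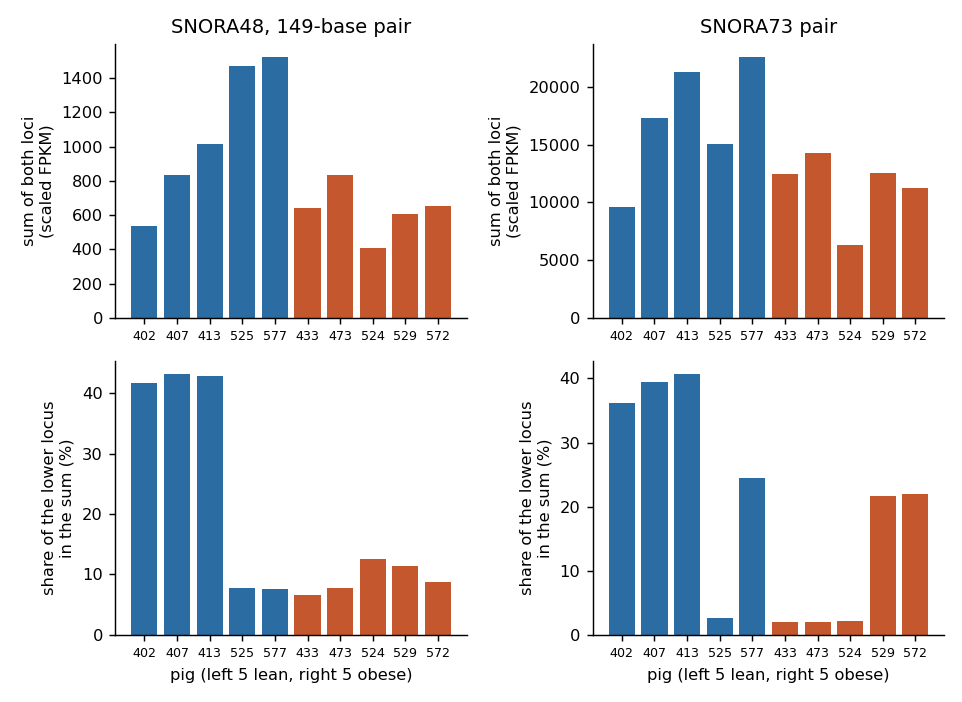
Sum of both loci in scaled FPKM (top) and share in percent of the lower locus in that sum (bottom) for the 149-base SNORA48 pair and the SNORA73 pair, with 1 bar per pig, lean in blue and obese in orange. The shares fall into separate levels, with pig-402, pig-407 and pig-413 at 36.1% to 43.2% in both pairs.

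Other sets of copies split in different ways. The annotation held 23 sets of loci above 0 with the same name and length, 51 loci in all, and 20 of these sets were pairs. In 9 of the 20 pairs both loci held at least 40% of the sum in every pig whose sum was above 0. Some of these pairs were at 0 in several pigs, down to a pair above 0 in a single pig. In 3 pairs, SNORA14, SNORA50 and SNORA75, a locus held less than 20% in every pig. The 130-base SNORA3 loci on chromosome 9 held between 49.8% and 50.2% each in every pig, and their sum was 3053 ± 1533 in lean and 1902 ± 563 in obese pigs (SD, n = 5 each). The SNORA3, SNORA14, SNORA50 and SNORA75 loci and the scaffold copy of the 149-base SNORA48 locus were chosen after their values were seen. With all such sets summed, 112 members were tested, none was without overlap, 17 or 15.2% had an unadjusted p under 0.05 in limma, against 20.6% of all genes in this setting, all lower in obese pigs, and the median log2 fold change was -0.57.

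Large differences stood on many and on few fragments. SNORA64 on scaffold GL896557.1 (11837 to 11971) had the lowest log2 fold change of the members tested, -2.74 ± 1.45, with an unadjusted p of 0.0869 in limma. It was at 158, 557, 617, 96.8 and 159 in lean and at 19.4, 689, 29.4, 148 and 0.00105 in obese pigs. Obese pig-473 held the highest value of all pigs and pig-572 the lowest.

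SNORA8, SNORA9 and SNORA33 had a mean of 777, 126 and 23.2 implied fragments. With SNORA64 they were chosen after their values were seen. SNORA8 was at 3730, 4114, 8346, 7316 and 6636 in lean and at 1662, 3349, 1763, 4471 and 3252 in obese pigs, where pig-529 alone stood above the lowest lean values. Its log2 fold change was -1.09 ± 0.345 with an adjusted p of 0.155 in limma. SNORA9 was at 378, 2714, 3924, 1041 and 947 in lean and at 516, 659, 253, 587 and 428 in obese pigs, and the lean pigs other than pig-402 stood above all obese pigs. Its log2 fold change was -1.50 ± 0.574 with an adjusted p of 0.196 in limma. SNORA33, inside RPS12, a gene for a ribosomal protein, was at 256, 203, 422, 384 and 336 in lean and at 220, 146, 141, 151 and 70.5 in obese pigs. Lean pig-407 alone stood below the highest obese pig, with a log2 fold change of -1.17 ± 0.303 and an adjusted p of 0.12 in limma.

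The other members of largest fold rested on few fragments. SNORA30, on chromosome 3 (18141589 to 18141719) inside SRCAP, a chromatin remodeller, was at 11.7, 47.5, 29.6, 27.6 and 23.3 in lean and at 8.60, 0, 12.6, 0 and 20.6 in obese pigs. This corresponds to at most 6 implied fragments in a library, and the lowest lean value lay below the highest obese values. The log2 fold change was -2.44 ± 0.876 with an adjusted p of 0.183 in limma. The SNORA70 loci on chromosome 15 (80926567 to 80926700, inside TTC21B, and 81148655 to 81148788) had the same value in every library. Each was at 2.41, 0, 8.08, 2.52 and 19.1 in lean pigs, at 3.56 in obese pig-433 and at 0 in the other obese pigs, with at most 1.99 implied fragments.

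SNORA31 on chromosome 1 (193557096 to 193557229) was the member with a higher level in obese pigs and an unadjusted p under 0.05. It was at 4.04 in lean pig-413 and at 0 in the other lean pigs, and at 7.12, 0, 5.18, 8.37 and 3.27 in the obese pigs. No library held more than 1 implied fragment of it. Its mean was 0.808 in lean and 4.79 in obese pigs, so it passed the filter only through the obese group, and its log2 fold change of 1.73 is given as a description. The other 9 members with an unadjusted p under 0.05 had log2 fold changes between -1.69 and -0.69.

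Cajal body RNAs were led by SCARNA13 on chromosome 7 (124000307 to 124000582). Its scaled FPKM was 4581, 5916, 13069, 11174 and 11616 in lean pigs and 4969, 7662, 3255, 6693 and 4364 in obese pigs. Lean pig-413, pig-525 and pig-577 stood above all obese pigs and the other lean pigs lay within their range. The log2 fold change was -0.73 ± 0.355 with an adjusted p of 0.266 in limma.

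SCARNA6 on chromosome 15 (147698074 to 147698349), inside the autophagy gene ATG16L1, was at 2295, 4443, 5918, 5780 and 5633 in lean and 3696, 5170, 2646, 4304 and 4129 in obese pigs. Its log2 fold change was -0.23 ± 0.299, with an adjusted p of 0.691 in limma, and 0.17 with the small RNA scaling. ATG16L1 moved the other way, at 2.41 ± 0.332 in lean and 2.98 ± 0.176 in obese pigs (SD, n = 5 each), a log2 fold change of 0.23 with an unadjusted p of 0.0196 and an adjusted p of 0.186 in limma. Across the 10 pigs the correlation of this pair was -0.58.

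SCARNA1 on chromosome 6 (78512515 to 78512678), inside PPP1R8, a regulator of protein phosphatase, had the lowest unadjusted p of the Cajal body RNAs. It was at 729, 1742, 2159, 1358 and 2504 in lean and at 889, 1030, 487, 1079 and 882 in obese pigs. The lean pigs other than pig-402 stood above all obese pigs, and pig-402 below all but pig-524. The log2 fold change was -0.89 ± 0.349 with an unadjusted p of 0.0275 and an adjusted p of 0.203 in limma. PPP1R8 had a log2 fold change of -0.14.

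SCARNA20, SCARNA23 and SCARNA16 had lower means in obese pigs without reaching an unadjusted p of 0.05. SCARNA20, inside WBSCR22, was at 1321 ± 497 in lean and 951 ± 328 in obese pigs (SD, n = 5 each). SCARNA23, inside WHSC1, was at 922 ± 389 and 576 ± 157. SCARNA16 was at 486 ± 251 and 310 ± 108. Their log2 fold changes were -0.47, -0.62 and -0.51.

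SCARNA2 on chromosome 4 (121458137 to 121458546) differed from these in its values. It was at 254, 317, 485, 381 and 460 in lean and at 356, 449, 276, 492 and 394 in obese pigs, from 4049 to 5816 implied fragments per library. Its means were 379 ± 96.5 and 393 ± 83.4 (SD, n = 5 each), with a log2 fold change of 0.06 ± 0.225 and an unadjusted p of 0.780 in limma. The sign turned to -0.07 without lean pig-402. With the small RNA scaling its log2 fold change was 0.46 with an adjusted p of 0.452 in limma, and all obese pigs stood above all lean pigs. Its difference from the other members was not tested.

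The other Cajal body RNAs were low. SCARNA21, inside the chromatin remodeller CHD3, was at 11.4, 61.9, 69.6, 70.9 and 217 in lean pigs and at 113, 41.7, 8.15, 19.9 and 26.3 in obese pigs, from 1.99 to 29.0 implied fragments. SCARNA17 was at 42.0 ± 23.0 and 33.8 ± 16.4 (SD, n = 5 each), and SCARNA15, inside KIAA0907, at 29.4 ± 8.75 and 33.3 ± 19.7. The log2 fold changes were -1.02, -0.26 and 0.02, and the signs of SCARNA17 and SCARNA15 depended on the scaling. SCARNA11, inside a locus of CHD4 and C12ORF53, was above 0 in 5 libraries and SCARNA24 in 2, with as many as 4 and 1 implied fragments. SCARNA8, inside HAUS6, was listed at 0 in all lean pigs and at 25.8 and 10.1 in obese pig-433 and pig-529. These values stand for 3 and 1 implied fragments, and SCARNA8 passed the filter only through the obese group.

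**Figure D5:**
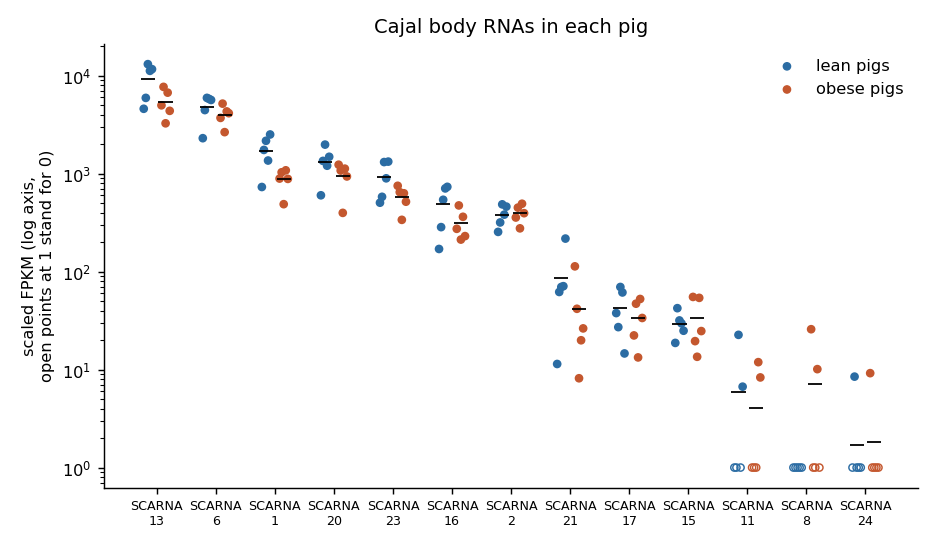
Scaled FPKM of the 13 Cajal body RNAs with a mean of at least 1 in each of 5 lean (blue) and 5 obese (orange) pigs, on a log axis where open points at 1 stand for 0 and bars are group means. The groups overlap for every RNA. SCARNA13 spans 3255 to 13069, and SCARNA8 is above 0 in obese pig-433 and pig-529, from 3 and 1 implied fragments.

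Most members lay inside another gene. The locus of 101 members was contained in that of at least 1 gene, 81 host genes in all, and 47 members lay in none; the files used give no strand for the loci. Members inside a gene had a median log2 fold change of -0.49, and those in none had -0.54. The 74 host genes tested had a median of -0.08, with 48 lower and 26 higher in obese pigs. Of the hosts 19 or 25.7% had an unadjusted p under 0.05 in limma, against 20.6% of all genes tested, 15 lower and 4 higher, and none passed an adjusted p of 0.05. In 75 of 92 pairs of a member and its host, the member had the lower log2 fold change of the pair. The correlation of a pair across the 10 pigs had a median of 0.10 (quartiles -0.17 and 0.46), and 53 of 92 were above 0. These pairs share libraries and size factors, and some share a host.

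The closest pair, picked after its values were seen, was SNORA52 and RPLP2, which encodes an acidic protein of the ribosomal stalk, with a correlation of 0.95. SNORA52 was at 313, 438, 1052, 950 and 1132 in lean and at 378, 675, 188, 311 and 347 in obese pigs. RPLP2 was at 1503 ± 493 in lean and 899 ± 251 in obese pigs (SD, n = 5 each). The log2 fold changes were -0.98 and -0.72, with adjusted p-values of 0.234 and 0.204 in limma. At the other end, SNORA77 and its host RANBP1 had a correlation of -0.59. SNORA77 had a mean of 1.27 implied fragments and at most 3 in a library, where SNORA52 had a mean of 68.1.

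Genes for the protein partners lay on both sides of 0. Of the 18 genes of this list found in the tables, 15 were tested, 9 lower and 6 higher in obese pigs, with a median log2 fold change of -0.02, and 1 or 6.67% had an unadjusted p under 0.05 in limma, against 20.6% of all genes tested. Among the core proteins, DKC1, the pseudouridine synthase, was at 4.08 ± 0.847 in lean and 3.49 ± 0.340 in obese pigs (SD, n = 5 each), and NOP10 at 181 ± 19.1 and 185 ± 38.3. NHP2 was at 18.3 ± 7.03 and 16.1 ± 1.61. GAR1 had loci with log2 fold changes of -0.14 and 0.04.

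COIL, which encodes coilin, the scaffold protein of the Cajal body, was the gene of this list with an unadjusted p under 0.05. It ranged from 2.31 to 3.39 in lean and from 1.91 to 2.2 in obese pigs, without overlap, where 4.14% of all genes tested had none, 1.69% with obese pigs lower. The means were 3.03 ± 0.445 and 2.07 ± 0.124 (SD, n = 5 each), with a log2 fold change of -0.38 ± 0.0905, an unadjusted p of 0.00153 and an adjusted p of 0.106 in limma. With the small RNA scaling the log2 fold change of COIL was -0.10 with an unadjusted p of 0.690 in limma, and the groups overlapped. WRAP53, which carries RNAs to the Cajal body, was at 1.49 ± 0.187 and 1.58 ± 0.187, and SMN1, a partner of coilin, at 18.4 ± 2.35 and 17.3 ± 2.78. NOLC1, a nucleolar chaperone of these particles, had a log2 fold change of 0.33 with an unadjusted p of 0.0818.

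The assembly factors SHQ1, RUVBL1 and RUVBL2 had log2 fold changes of 0.03, -0.01 and -0.02. NAF1, an assembly factor that GAR1 replaces, was under the filter at 0.768 ± 0.0666 in lean and 0.730 ± 0.0769 in obese pigs. Of the enzymes that trim or tail the 3′ ends, PARN was at 6.21 ± 1.81 and 4.68 ± 0.604, PAPD5 at 3.12 ± 0.583 and 3.58 ± 0.447 and TOE1 at 1.17 ± 0.381 and 0.929 ± 0.101. Their log2 fold changes were -0.32, 0.16 and -0.16, with unadjusted p-values of 0.0750, 0.180 and 0.219 in limma. TGS1, which modifies the cap of small nuclear RNAs, was at 1.0 ± 0.201 and 0.772 ± 0.170, under the filter. TERT, the protein of telomerase, was at 0 in all lean pigs and at up to 0.00224 in obese pigs.

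Telomerase RNA, which ends in a box H/ACA domain but carries another kind of name and is no member, was looked at after its values were seen. On chromosome 13 (117009658 to 117010087), it was at 118 ± 27.6 in lean and 140 ± 38.2 in obese pigs (SD, n = 5 each). Its log2 fold change was 0.23 ± 0.212 with an adjusted p of 0.548 in limma.

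The share of members near a region that the authors' methylation comparisons list was lower than that of all genes or close to it. Of the 7401 regions from captured methylated DNA, a region overlapped 2 members (1.35%, against 8.68% of all genes) and lay within 10000 bases of 8 (5.41%, against 13.9%). For RRBS, bisulfite sequencing at restriction sites, the 610 regions that required calls in at least 5 pigs per group lay within 10000 bases of 4 members (2.70%, against 2.17% of all genes), and the 2416 regions that required at least 3 pigs per group lay within that distance of 9 members (6.08%, against 7.39%). None of the RRBS regions overlapped a member. Longer genes have more room for an overlap, and the members are short. For small RNA genes the shares within 10000 bases were 6.49% for captured regions, and 1.16% and 2.92% for the RRBS regions. The members stood below this share for captured regions and above it for RRBS, from 4 and 9 members.

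SCARNA23 lay 202 bases from a captured region on chromosome 8 (510101 to 512000), with the authors' mean of normalized counts at 34.8 in lean and 49.3 in obese pigs. SCARNA6 lay 8574 bases from a region at 17.1 and 10.4. On chromosome 18, RRBS listed a region with the authors' mean methylation at 17.8% in lean and 0.210% in obese pigs, where the unnamed group columns were read in the order in which the title of the table gives the groups. It lay 3933 bases from a SNORA21 locus and 6719 and 7220 bases from SNORA5 loci, inside the locus of TBRG4. The SNORA5 locus at 55205170 to 55205303 shared all its values with a copy on a scaffold and had a log2 fold change of -0.50. These regions were listed by the authors because the groups differed, and pig-411, labelled obese, stands among the lean libraries of the captured comparison.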

How the data were processed

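RNAseq libraries of mature adipocytes from 5 lean and 5 obese pigs were used. The authors mapped paired-end reads with STAR 2.3.1 to Sscrofa10.2 and deposited FPKM values with their bounds from Cufflinks 2.2.0 on the Ensembl annotation. The deposited signal of captured methylated DNA is the authors' group mean of counts normalized by diffReps 1.55.4. The deposited fraction of RRBS is the authors' group mean methylation, printed as percent. The authors' own RNAseq comparison table (group means, fold changes, p-values and q-values) and the fold changes and p-values of their region lists were not used.

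Entries with the same identifier were summed, 9 genes with a failed estimate were left out, and FPKM values were divided by median-of-ratios size factors. The libraries of pig-572 were averaged. Genes with a mean of at least 1 were compared on log2 of the value plus a pseudocount of 1 with limma 3.58.1 (eBayes with trend, Benjamini-Hochberg adjustment) in R 4.3.3. Log2 folds understate the change of low genes. In simulated data with 10170 genes for this comparison, limma recovered 75% of changes of 1 and 90% of changes of 2 on the log2 scale. It also called 12 genes that were not changed. The changed genes were drawn at random from all genes, with independent normal noise. These shares therefore do not give the recovery for the members. Single members also had an exact permutation test. Hosts are genes whose locus contains the member. Implied fragments are the square of 2 times the FPKM over its distance to the upper bound, and cover counting error only. Nothing says whether the libraries shared a preparation batch.

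Named were the 5 highest members, SCARNA members with a mean of at least 1, up to 5 members of largest fold in each direction with an unadjusted p under 0.05, members without overlap, symbols with 5 or more loci, protein partners and hosts; others are marked. The members and lists were chosen with earlier results of these data known. Alternatives changed scaling, pseudocount, filter, variance model, libraries and pigs. Python 3.11.15 with pandas 2.3.3, numpy 2.4.6, scipy 1.17.1 and matplotlib 3.10.9 was used.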

Additional observations from a re-analysis of the deposited data

Results flagged for a closer look

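In groups of 5 pigs, single pigs stood far from the other 4 in 14 of 119 groups examined, a criterion that chance meets in about 1 in 20 groups of normally distributed values. This rate does not hold for 6 of the 14, where the other 4 pigs were at 0, and 2 of these are SNORA70 loci with the same values. Of the members, SCARNA21 was at a scaled FPKM of 217 in lean pig-577, against 11.4 to 70.9 in the other lean pigs. SCARNA24 was at 8.47 in lean pig-407 and at 9.19 in obese pig-433, and at 0 in the other pigs of each group. Both SNORA70 loci on chromosome 15 were at 3.56 in obese pig-433 and at 0 in the other obese pigs. SNORA31 on chromosome 1 was at 4.04 in lean pig-413 and at 0 in the other lean pigs. Apart from SCARNA21, these values stand for at most 1.99 implied fragments.

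Among the protein partners, lean pig-525 stood far above the other lean pigs at 4 loci. NHP2 was at 30.4 there, against 13.2 to 18.1 in the other lean pigs. The GAR1 loci were at 2.46 and 3.21, against 0.803 to 1.25 and 1.27 to 1.77, and PAPD5 was at 4.12, against 2.65 to 3.06. TERT was at 0.00224 in obese pig-572 and at 0 in the other obese pigs. Of the host genes, BAT2 was at 8.85 in obese pig-433, against 3.58 to 4.47, and ATG16L1 at 3.29 in the same pig, against 2.83 to 2.94. EIF4A2 was at 321.1 in obese pig-473, against 194 to 218.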

How the results depend on the processing

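The median log2 fold change of the members stayed below 0 under every alternative run, from -0.70 to -0.36 when single pigs were left out and at -0.12 with the small RNA scaling, where all genes had 0.31. The count of 21 members with an unadjusted p under 0.05 ranged from 8 to 49 over the pigs left out. The share of all genes reaching this p moved too, up to 26.2% without lean pig-402, against 20.6% in the main comparison. The count of 0 members with an adjusted p under 0.05 ranged from 0 to 1, with a SNORA63 locus at 0.0476 without lean pig-402. It was 1 when both libraries of pig-572 counted as replicates, the 149-base SNORA48 locus at 0.0326. In these settings 146 of 10181 and 155 of 10152 genes passed this threshold, against 1 of 10170 in the main comparison. The count of 1 member without overlap ranged from 1 to 12, the latter without lean pig-402, was 2 with the small RNA scaling and 0 with loci of the same name and length summed. The share of all genes without overlap is not given for the pigs left out. The count of 1 protein partner with an unadjusted p under 0.05 ranged from 1 to 4, the latter without lean pig-525, was 2 with upper quartile scaling and with separate libraries of pig-572, and 0 with a mean of at least 10, where fewer genes were tested. The scalings by small RNA genes, the summed or once-counted loci and the minimum of 10 implied fragments were chosen after seeing the data. The cause of the other shifts was not tested.

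Of 521 values of named members under alternatives, 493 kept their direction and side of the threshold, 1 passed it and 27 changed sign, all of them in 7 members. SNORA73 at the first locus and SCARNA6 turned to 0.17 with the small RNA scaling, as did SCARNA17 to 0.12 and SCARNA11 to 0.14. SCARNA2 turned to -0.01 with only the first library of pig-572. SCARNA15 turned to -0.05 without size factors, -0.03 with upper quartile scaling, -0.27 with only the first library of pig-572 and -0.14 with separate libraries, where SCARNA11 was at 0.18 and SCARNA24 at -0.09. Over the pigs left out, SCARNA2 ranged from -0.07 to 0.18, SCARNA17 from -0.58 to 0.02, SCARNA15 from -0.21 to 0.28, SCARNA11 from -0.70 to 0.65 and SCARNA24 from -0.14 to 0.67. No paired analysis was possible because lean and obese pigs are different animals that share no number. With 5 pigs per group and members of few fragments, small differences were not detectable.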
